A study of Mus musculus with 8 samples.

Results

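The beta crystallin genes Cryba1, Cryba2, Cryba4, Crybb1, Crybb2 and Crybb3 were examined in ATAC-seq data from the mouse lens. The 6 genes were taken from a fixed list of names, each with its RefSeq gene body in GRCm38 and 50 kb on either side, and every peak overlapping these windows was kept. The 6 genes, of 19556 protein-coding genes with a length of 1 kb or more, made up 4 separate loci of 456.3 kb in all. The windows held 84 of 100003 peaks in embryonic epithelium, 117 of 123743 in embryonic fibers, 44 of 58592 in newborn epithelium and 119 of 62995 in newborn fibers. ATAC-seq uses a transposase that cuts open DNA, so that peaks of sequenced fragments mark accessible chromatin. Lenses of CD1 mice, several to a sample, were dissected into epithelium and fibers before birth, at E14.5, and on the day of birth, at P0.5; the groups are called embryonic and newborn epithelium and fibers. This gave 8 libraries, 2 in each of the 4 groups, and the labels name no engineered allele and no treatment. The deposited lists are labelled as pooled, so each group is represented here by a single peak list. The authors also describe peak calls in each sample. The lists hold no read counts and nothing for single libraries, so the values below have no error between replicates, the lists do not give the depth behind them, and no test between groups could be made.

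Beta crystallins are structural proteins of the lens that pack at high concentration in the fiber cells and give the lens its transparency and refractive power. They share a common fold with the gamma crystallins, assemble into oligomers with each other, and fall into an acidic (A) and a basic (B) branch; mutations in several of them cause inherited cataract. The first lens fibers arise from cells at the back of the lens vesicle and later ones from the epithelium at the equator, and large Maf proteins, Sox1, Sox2, Prox1 and Pax6 are known to act on crystallin promoters.

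A few measures recur. Gene body coverage is the percentage of bases between the ends of a gene's curated RefSeq transcripts that lay under peaks of a list. The place of a peak is its rank by the authors' fold enrichment within its own list, in percent of the list, so that 1% stands near the top and 100% is the weakest peak. In bulk tissue, more cells with an open site and wider opening in each cell cannot be told apart. Peaks covered 1.40% of the genome in embryonic epithelium, 2.25% in embryonic fibers, 0.742% in newborn epithelium and 0.677% in newborn fibers. Because lists differ in how much they call, the main values of the beta crystallin genes are given beside a measure over all genes or the genome.

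As a check of the tissue labels, 5 of 5 lens epithelium markers had a promoter peak in each of the 4 lists, and so did 5 of 6 fiber markers. Of the fiber markers, 5 had a promoter peak in the top 10% of the list in embryonic fibers and 3 in newborn fibers, against 3 and 1 in the epithelium of the same stages. Epithelium markers did not separate the tissues in this way, with 4 in the top 10% in both embryonic lists and 3 in both newborn lists. The highest promoter peak of Pax6, one of them, stood at 0.479% in embryonic fibers and 3.73% in embryonic epithelium. Dnase2b, the nuclease that degrades fiber nuclei, had no promoter peak in any list. Retina markers had a promoter peak for 4 of 4 genes in both embryonic lists, 3 of 4 in newborn epithelium and 1 of 4 in newborn fibers, never in the top 10%. Endothelial markers had one for 2, 3, 2 and 1 of 3 genes in the order embryonic epithelium, embryonic fibers, newborn epithelium and newborn fibers. Of the 3 blood and immune markers, 1 had a promoter peak in every list but newborn epithelium, where none did, and the 3 pigmented epithelium markers had none in any list. The part of other cell types in the results was not tested.

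The promoters are shown first, because most start-site summits lay within or close to them. Each line gives the 250 bases before the curated transcription start site, in the direction of transcription, from the GRCm38 reference, which is not the CD1 strain. Capitals mark matches, on either strand, to consensus letters of lens factors. For Maf these were the half-site of its recognition element, TGCTGA, and for Sox factors either ACAAAG or the variant spelled ACAATG. AP-1 was searched as TGANTCA, where N is any base, Meis as the letters TGACAG, and the TATA box was taken to read TATAAA. Tead (GGAATG), the heat shock factors (GAANNTTC), Ets factors (CCGGAA), Pitx factors (GGATTA) and the consensus of CTCF were searched in the same way and gave no match in these 6 stretches.
Cryba1, chr11:77725294-77725543, minus strand: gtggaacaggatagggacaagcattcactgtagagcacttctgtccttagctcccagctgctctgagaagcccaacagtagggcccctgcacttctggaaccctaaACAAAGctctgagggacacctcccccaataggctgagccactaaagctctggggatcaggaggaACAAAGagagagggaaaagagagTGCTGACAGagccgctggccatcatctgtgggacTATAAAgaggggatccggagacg
Cryba2, chr1:74893144-74893393, minus strand: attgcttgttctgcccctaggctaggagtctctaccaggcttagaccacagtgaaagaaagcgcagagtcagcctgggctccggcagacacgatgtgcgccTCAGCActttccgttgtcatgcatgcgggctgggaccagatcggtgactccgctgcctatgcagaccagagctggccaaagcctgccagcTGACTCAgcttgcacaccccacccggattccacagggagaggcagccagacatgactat
Cryba4, chr5:112252519-112252768, minus strand: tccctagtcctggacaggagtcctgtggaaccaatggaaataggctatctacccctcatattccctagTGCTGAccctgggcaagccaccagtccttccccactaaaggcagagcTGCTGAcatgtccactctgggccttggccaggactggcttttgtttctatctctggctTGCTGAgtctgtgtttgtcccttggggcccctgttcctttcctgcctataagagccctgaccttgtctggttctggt
Crybb1, chr5:112255570-112255819, plus strand: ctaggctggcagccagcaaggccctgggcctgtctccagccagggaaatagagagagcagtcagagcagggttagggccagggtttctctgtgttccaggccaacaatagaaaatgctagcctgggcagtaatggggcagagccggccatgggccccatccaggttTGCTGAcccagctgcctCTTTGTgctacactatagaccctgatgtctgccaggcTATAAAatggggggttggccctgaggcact
Crybb2, chr5:113070118-113070367, minus strand: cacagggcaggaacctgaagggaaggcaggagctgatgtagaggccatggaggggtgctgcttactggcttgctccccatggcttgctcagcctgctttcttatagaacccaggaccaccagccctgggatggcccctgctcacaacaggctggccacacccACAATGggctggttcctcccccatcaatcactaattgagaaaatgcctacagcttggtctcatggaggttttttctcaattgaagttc
Crybb3, chr5:113081585-113081834, minus strand: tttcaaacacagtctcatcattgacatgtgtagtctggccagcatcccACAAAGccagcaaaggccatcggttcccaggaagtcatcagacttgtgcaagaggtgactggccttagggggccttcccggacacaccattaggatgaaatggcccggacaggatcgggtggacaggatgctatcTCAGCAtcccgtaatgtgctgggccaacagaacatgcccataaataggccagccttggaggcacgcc

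The Maf half-site was present before 5 of the 6 start sites, all but that of Crybb2, whereas 16.1% of 32851 RefSeq promoter stretches of the same length held it. It lay at -57 to -52 of Cryba1, where it overlaps the Meis match, at -84 to -79 of Crybb1, at -67 to -62 of Crybb3 on the opposite strand and at -149 to -144 of Cryba2, also on the opposite strand. Cryba4 had 3 copies, at -182 to -177, -135 to -130 and -77 to -72. In 4 of the 6 genes a copy lay between -84 and -52. That interval was read off these same matches, and no share of all promoters was counted for it. The Sox letters ACAAAG occurred before the start sites of 3 genes, Cryba1, Crybb1 and Crybb3 (16.5% of all promoters), and ACAATG before that of Crybb2 alone (10.7%). A TATA box match was found in 2 genes, at -23 to -18 of Cryba1 and -30 to -25 of Crybb1 (12.4% of all promoters), the AP-1 letters in Cryba2 (6.75%) and the Meis letters in Cryba1 (15.9%). These are matches of letters and no measure of binding.

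In embryonic fibers, 5 of the 6 beta crystallin genes were covered by peaks along most of the gene body, and 3 of them, Cryba1, Crybb1 and Crybb3, from end to end. Only 36 of the 19556 genes (0.184%) were covered completely in that list. Crybb2 was the exception, with 9.99%. In embryonic epithelium these bodies were largely without peaks, apart from that of Crybb3. In newborn fibers the covered share lay between those of embryonic fibers and embryonic epithelium in 5 of the 6 genes. Of these, Cryba1 did not keep this order when only peaks with q under 0.001 were counted. The share of all genes with this order was not counted. Their medians were 2.55% in embryonic epithelium, 4.06% in embryonic fibers and 1.29% in newborn fibers, the lowest of these 3.

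In the fiber lists the basic genes included both the most and the least covered. Crybb1 (chr5:112255820-112269585, plus strand, 13.8 kb, 6 exons) was covered to 3.0% in embryonic epithelium, 100% in embryonic fibers, 0.908% in newborn epithelium and 47.0% in newborn fibers. Both fiber lists thus stood far above both epithelium lists. Crybb3 (chr5:113075839-113081584, minus strand, 5.75 kb, 6 exons) was covered to 60.3%, 100%, 8.32% and 71.2% in the same order. It was the beta crystallin gene with the most open body in epithelium at E14.5, and in newborn fibers only 20 of the 19556 genes (0.102%) were covered at least as far. Crybb2 (chr5:113058258-113070117, minus strand, 11.9 kb, 7 exons), known for its high abundance in the adult lens, was covered to 8.15%, 9.99%, 5.08% and 11.2%, and its 4 values lay within a few points of each other.

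The acidic genes resembled Crybb1 in embryonic fibers but kept less coverage at P0.5. Cryba1 (chr11:77718614-77725293, minus strand, 6.68 kb, 5 exons), which encodes a pair of beta crystallins from alternative start codons, was covered to 8.76% in embryonic epithelium, 100% in embryonic fibers, 0.898% in newborn epithelium and 12.8% in newborn fibers. Cryba2 (chr1:74889934-74893143, minus strand, 3.21 kb, 5 exons) was covered to 16.3%, 76.5%, 12.6% and 22.5%. Cryba4 (chr5:112246492-112252518, minus strand, 6.03 kb, 5 exons) was covered to 0.664%, 93.1%, 2.26% and 29.6%. In each of these 3 genes the embryonic fiber value was the highest of the 4 and the newborn fiber value the second, except that Cryba1 in newborn fibers fell to 6.80% when only peaks with q under 0.001 were counted, below embryonic epithelium at 8.76%.

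**Figure D1:**
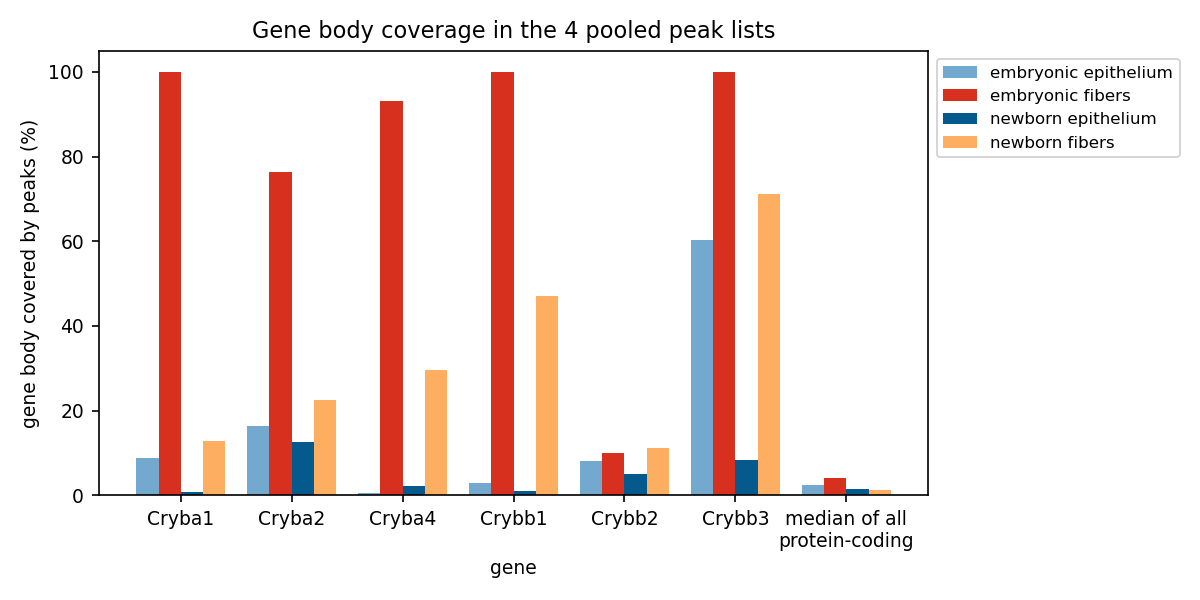
Bars show the percentage of each gene body under peaks in the pooled list of each group (1 value per list, no error bars), for the 6 beta crystallin genes and, at the right, the median of 19556 protein-coding genes. In embryonic fibers 5 genes stand between 76.5% and 100% and Crybb2 at 9.99%, and the medians of all genes stay at or below 4.06%.

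Read against all genes, the high coverage was uncommon. A gene body covered to at least 50% was found for 5 of the 6 beta crystallin genes in embryonic fibers, where 3.77% of all protein-coding genes reached it and 4.46% of the 5986 genes in the same range of lengths. In embryonic epithelium 1 of 6 reached it, Crybb3 (1.92% of all genes), which fell to 28.2% and below the limit with equal numbers of peaks. In newborn epithelium 0 of 6 reached it (0.353%; 0.134% of genes of like length), and in newborn fibers 1 of 6, again Crybb3 (0.542%; 0.301%). The median over the 6 genes was 8.46% in embryonic epithelium, 96.5% in embryonic fibers, 3.67% in newborn epithelium and 26.0% in newborn fibers, beside 6.39%, 9.03%, 3.44% and 3.37% over the genes in their range of lengths. In both epithelium lists the beta crystallin median was therefore close to that of genes of like length, and in both fiber lists it was well above.

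Fibers were more covered than epithelium at both stages in 5 of the 6 genes, while for Crybb2 the direction at E14.5 depended on the peaks and bases counted. At E14.5 the fiber value exceeded the epithelium value by at least 20 points in 5 of 6 genes (3.14% of all genes, 4.31% of those of like length), by 97.0 points for Crybb1, 92.4 for Cryba4, 91.2 for Cryba1, 60.2 for Cryba2 and 39.7 for Crybb3, against 1.84 for Crybb2. That last difference turned to -1.14 points among peaks with a q value under 0.001, to -3.36 with equal numbers of peaks and to -3.77 without the first 2 kb of the gene. With equal numbers of peaks the difference of Crybb3 at E14.5 was 71.8 points. At P0.5 it did so in 3 of 6 (0.793% and 1.07%), by 62.9 points for Crybb3, 46.1 for Crybb1 and 27.3 for Cryba4. Cryba1, Cryba2 and Crybb2 differed by 11.9, 9.91 and 6.13 points there. These smaller differences moved with the setting, to 5.90 points for Cryba1 and 0.337 for Crybb2 with q under 0.001, and to 25.8 for Cryba2, past 20 points, without the first 2 kb.

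Between stages, fiber coverage was at least 20 points higher at E14.5 than at P0.5 in 5 of 6 genes (7.45% and 11.4%), by 87.2 points for Cryba1, 63.5 for Cryba4, 53.99 for Cryba2, 53.0 for Crybb1 and 28.8 for Crybb3. For Crybb2 the fiber value was 1.22 points lower at E14.5. The difference, E14.5 less P0.5, was 2.39 points with q under 0.001 and -6.71 points with equal numbers of peaks. In epithelium only Crybb3 passed 20 points, at 52.0 (3.34% and 5.38%), and it fell to 19.8 points when the 58592 strongest peaks of each list were compared. The 2 stages share no library, but each fiber list and each epithelium list enters 2 of these comparisons.

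A higher percentage of exonic than of intronic bases was under peaks in 5 of the 6 genes in embryonic epithelium, 3 in embryonic fibers, 2 in newborn epithelium and 5 in newborn fibers. In embryonic fibers Cryba1, Crybb1 and Crybb3 were covered to 100% in exons and introns alike, so that they could not differ. Cryba2, Cryba4 and Crybb2 all had the higher share in exons there. Exonic coverage was the higher in 51.9%, 47.9%, 52.2% and 53.6% of the 5851 genes of like length with introns. Genes without a peak in the body counted there as not higher. Of the 5986 genes of like length, with or without introns, 1733, 1665, 2050 and 2019 had none in the same order. All 6 beta crystallin genes had peaks in every list, so these shares are not a like background for them. In newborn fibers, exonic bases of Crybb3 were covered to 100% and intronic bases to 65.7%. For Crybb1 the values were 85.4% and 44.1%, for Cryba4 55.7% and 25.5%, for Cryba2 51.1% and 14.2%, and for Crybb2 28.6% and 9.78%. Cryba1 went the other way, with 10.1% of exonic and 13.2% of intronic bases. In embryonic epithelium the exons of Crybb3 were covered to 97.6% and its introns to 53.2%, so that its exons were nearly all open there although the body as a whole was not.

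Other lens genes give a scale for these values. Gamma crystallins, the close relatives of the beta crystallins, had a median coverage of 15.9% in embryonic epithelium, 100% in embryonic fibers, 2.74% in newborn epithelium and 15.0% in newborn fibers over 8 genes, and 7 of the 8 reached 50% in embryonic fibers. Both alpha crystallins reached it there, and Cryaa, a chaperone expressed in epithelium as well as fibers, was also covered to 100% in embryonic epithelium and in newborn fibers. The 13 genes of factors known from crystallin promoters had medians of 39.0%, 61.5%, 16.4% and 23.0%.

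The start site itself lay inside a peak for 5 of the 6 genes in embryonic epithelium, embryonic fibers and newborn fibers, and for 3 of 6 in newborn epithelium. Over all protein-coding genes the shares were 64.3%, 66.3%, 51.3% and, for newborn epithelium, 60%, so that an open start site was no rarity. Cryba1, Cryba2 and Crybb3 were open at the start site in all 4 lists, Cryba4 and Crybb1 in all but newborn epithelium, and Crybb2 in none.

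The summits of the start-site peaks sat close to the start in all 4 lists for Crybb3 and Cryba2. For Crybb3 they lay at -52 bp in embryonic epithelium, -9 in embryonic fibers, 4 in newborn epithelium and -25 in newborn fibers, at places 3.27%, 1.02%, 14.6% and 9.32%. For Cryba2 they lay at -126, -81, -207 and -85 bp, at places 3.60%, 0.947%, 15.1% and 3.45%. In both genes the peak stood higher in the fiber list than in the epithelium list of the same stage, but the newborn order for Crybb3 was the reverse when only peaks with q under 0.001 were ranked, with 19.1% in fibers and 16.8% in epithelium.

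Cryba1 had its start-site peak at places 7.05%, 3.18%, 27.9% and 11.4% in the order embryonic epithelium, embryonic fibers, newborn epithelium and newborn fibers. In embryonic fibers this was a single peak of 8363 bp that spanned the whole gene, with the summit in an intron 3.74 kb into the gene, while the other 3 summits lay between -79 and -2 bp. Cryba4 had a weak start-site peak in embryonic epithelium, at 61.2%, one of 2287 bp at 4.63% in embryonic fibers with its summit at -65 bp, none in newborn epithelium, and one at 15.7% in newborn fibers. The embryonic epithelium peak of Cryba4 was not among the peaks kept when equal numbers were compared, and no difference of places was tested. Places also moved with the peaks ranked. With q under 0.001 those in newborn fibers became 23.3% for Cryba1 and 32.2% for Cryba4. With equal numbers of peaks the embryonic fiber place of Cryba1 became 6.71%.

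For Crybb1 the start-site peak stood at 10.4% in embryonic epithelium and 3.82% in newborn fibers, with summits at -103 and -96 bp. In embryonic fibers its start site lay within a peak of 31780 bp (chr5:112254280-112286059) whose place, 0.494%, was set by a summit 20.8 kb downstream of the Crybb1 start and 101 bp from that of the next gene, Tpst2. That place therefore describes the Tpst2 promoter, and no summit was called in the promoter or body of Crybb1 in this list. In newborn epithelium the Crybb1 start site was outside any peak, and the highest peak over the gene was one of 125 bp in an intron, at 31.6%.

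**Figure D2:**
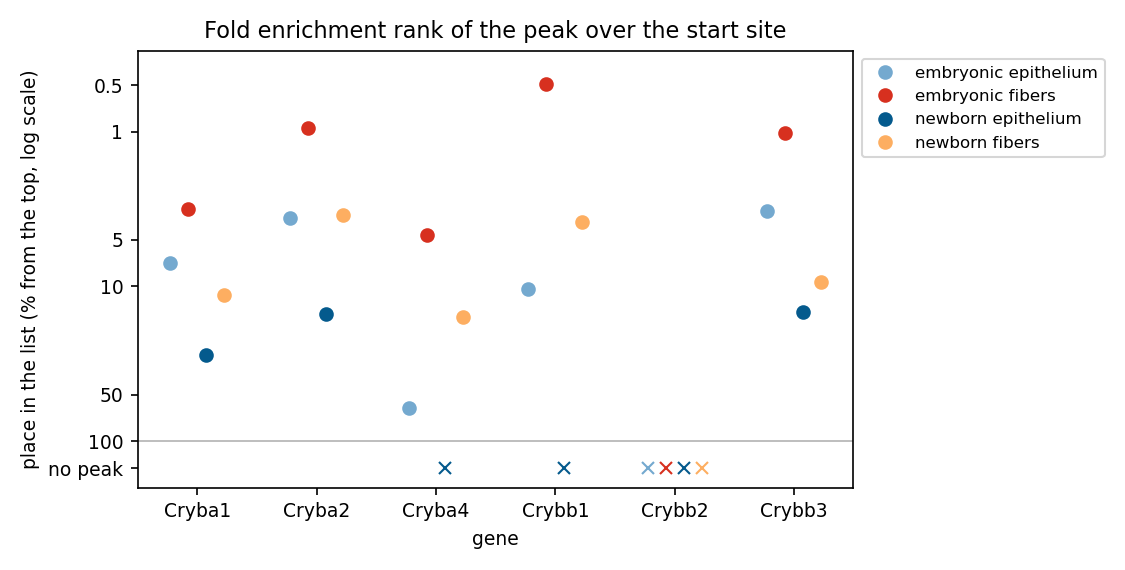
Points show, for each gene and list, the place of the peak that contains the start site, in percent from the top of its list on a log scale (top of the plot is the strongest peak); crosses mark lists in which no peak contains it. Crybb2 has crosses in all 4 lists. The embryonic fiber point of Crybb1, at 0.494%, belongs to a peak whose summit lies at the promoter of Tpst2. That of Cryba1, at 3.18%, belongs to a peak whose summit lies 3.74 kb inside the gene.

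Counting the highest peak over the promoter (within 2 kb of the start site) or the gene body, 3 of 6 genes were in the top 10% of the list in embryonic epithelium, 5 of 6 in embryonic fibers, 0 of 6 in newborn epithelium and 3 of 6 in newborn fibers. Over all protein-coding genes the shares were 46.7%, 52.7%, 30.8% and 33.2%. Peaks of this height were thus common over genes in general, so that in embryonic fibers the count by coverage lay further from its background than the count by height. When a peak was counted only where its own summit lay in the promoter or gene body, a rule added after the values were seen, the count in embryonic fibers was 4 of 6, without Crybb1.

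Crybb2, the gene without a peak at its curated start site in any list, had its highest peaks inside the gene. In both fiber lists its highest peak lay just inside the gene, with the summit at 0.289 kb in embryonic fibers (426 bp wide, place 26.1%) and at 0.201 kb in newborn fibers (238 bp, place 26.4%), and neither epithelium list had a peak there. A predicted RefSeq start site, 373 bp downstream of the curated one, was within a peak in both fiber lists and in neither epithelium list, and so was a further predicted start 1201 bp downstream. The remaining predicted RefSeq start, 623 bp downstream, lay in no peak of any list. These start sites were looked up after the values were seen. No start site of the gene in the GENCODE annotation lay in a peak of both fiber lists, but the GENCODE start 1660 bp downstream lay in a peak of newborn fibers alone. In both epithelium lists the highest peak of Crybb2 was instead in an intron, with the summit at 3.1 kb at E14.5 (place 16.8%) and 3.21 kb at P0.5 (place 15.8%). The same intronic site was called in fibers too, at 45.8% at E14.5 and 34.7% at P0.5, lower in the list than in the epithelium of either stage.

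Both Crybb2 sites are printed for their opposite pattern, in the direction of transcription of the gene, with capitals as above; they were chosen after the values were seen. The first stops at the edge of an exon.
Crybb2 fiber site at 0.3 kb, chr5:113069737-113069927, minus strand: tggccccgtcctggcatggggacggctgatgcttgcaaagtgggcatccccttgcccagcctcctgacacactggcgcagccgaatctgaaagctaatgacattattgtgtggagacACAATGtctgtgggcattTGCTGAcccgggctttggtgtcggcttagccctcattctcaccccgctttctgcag
Crybb2 intronic site at 3.1 kb, chr5:113066917-113067116, minus strand: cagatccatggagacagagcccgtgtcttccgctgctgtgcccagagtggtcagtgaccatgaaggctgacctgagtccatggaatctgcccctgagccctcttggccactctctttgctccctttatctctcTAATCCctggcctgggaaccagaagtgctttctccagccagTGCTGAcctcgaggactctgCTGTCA
Both hold the Maf half-site that the stretch before the Crybb2 start lacks. It was found within 200 bases around 21.03% of all summits in embryonic epithelium and 24.7% in embryonic fibers. The fiber site also holds the Sox letters ACAATG, and the intronic site holds a Pitx match (TAATCC on this strand) and a Meis match.

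With the gene bodies included, the windows held more peaks per length than the genome as a whole. Peaks that overlapped no beta crystallin gene body were 67 of 84 in embryonic epithelium and 104 of 117 in embryonic fibers. They were 36 of 44 in newborn epithelium and 84 of 119 in newborn fibers. The 4 loci together held 18.4 peaks per 100 kb in embryonic epithelium, 25.6 in embryonic fibers, 9.64 in newborn epithelium and 26.1 in newborn fibers, against 3.67, 4.54, 2.15 and 2.31 over the genome. Under peaks lay 7.25%, 32.3%, 2.89% and 8.80% of their bases. Set against the windows of all protein-coding genes, the epithelium lists stood out less than this. Depending on the beta crystallin gene, 6.34% to 30.8% of genes had windows covered at least as far in embryonic epithelium and 17.4% to 47.0% in newborn epithelium. In embryonic fibers at most 5.24% did, and in newborn fibers between 0.128% and 16.4%. In embryonic fibers 9 of the 117 peaks (7.69%) were wider than 3 kb, a width reached by 0.598% of all peaks of that list, and in the other 3 lists none of the window peaks was. Such widths were rarer there over the genome too, at 0.144% of all peaks in embryonic epithelium, 0.0154% in newborn epithelium and 0.0175% in newborn fibers. The number of window peaks in newborn against embryonic fibers, 119 and 117, depended on the peaks counted, being 113 and 55 with equal numbers of peaks and 71 and 93 among peaks with a q value under 0.001.

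**Figure D3:**
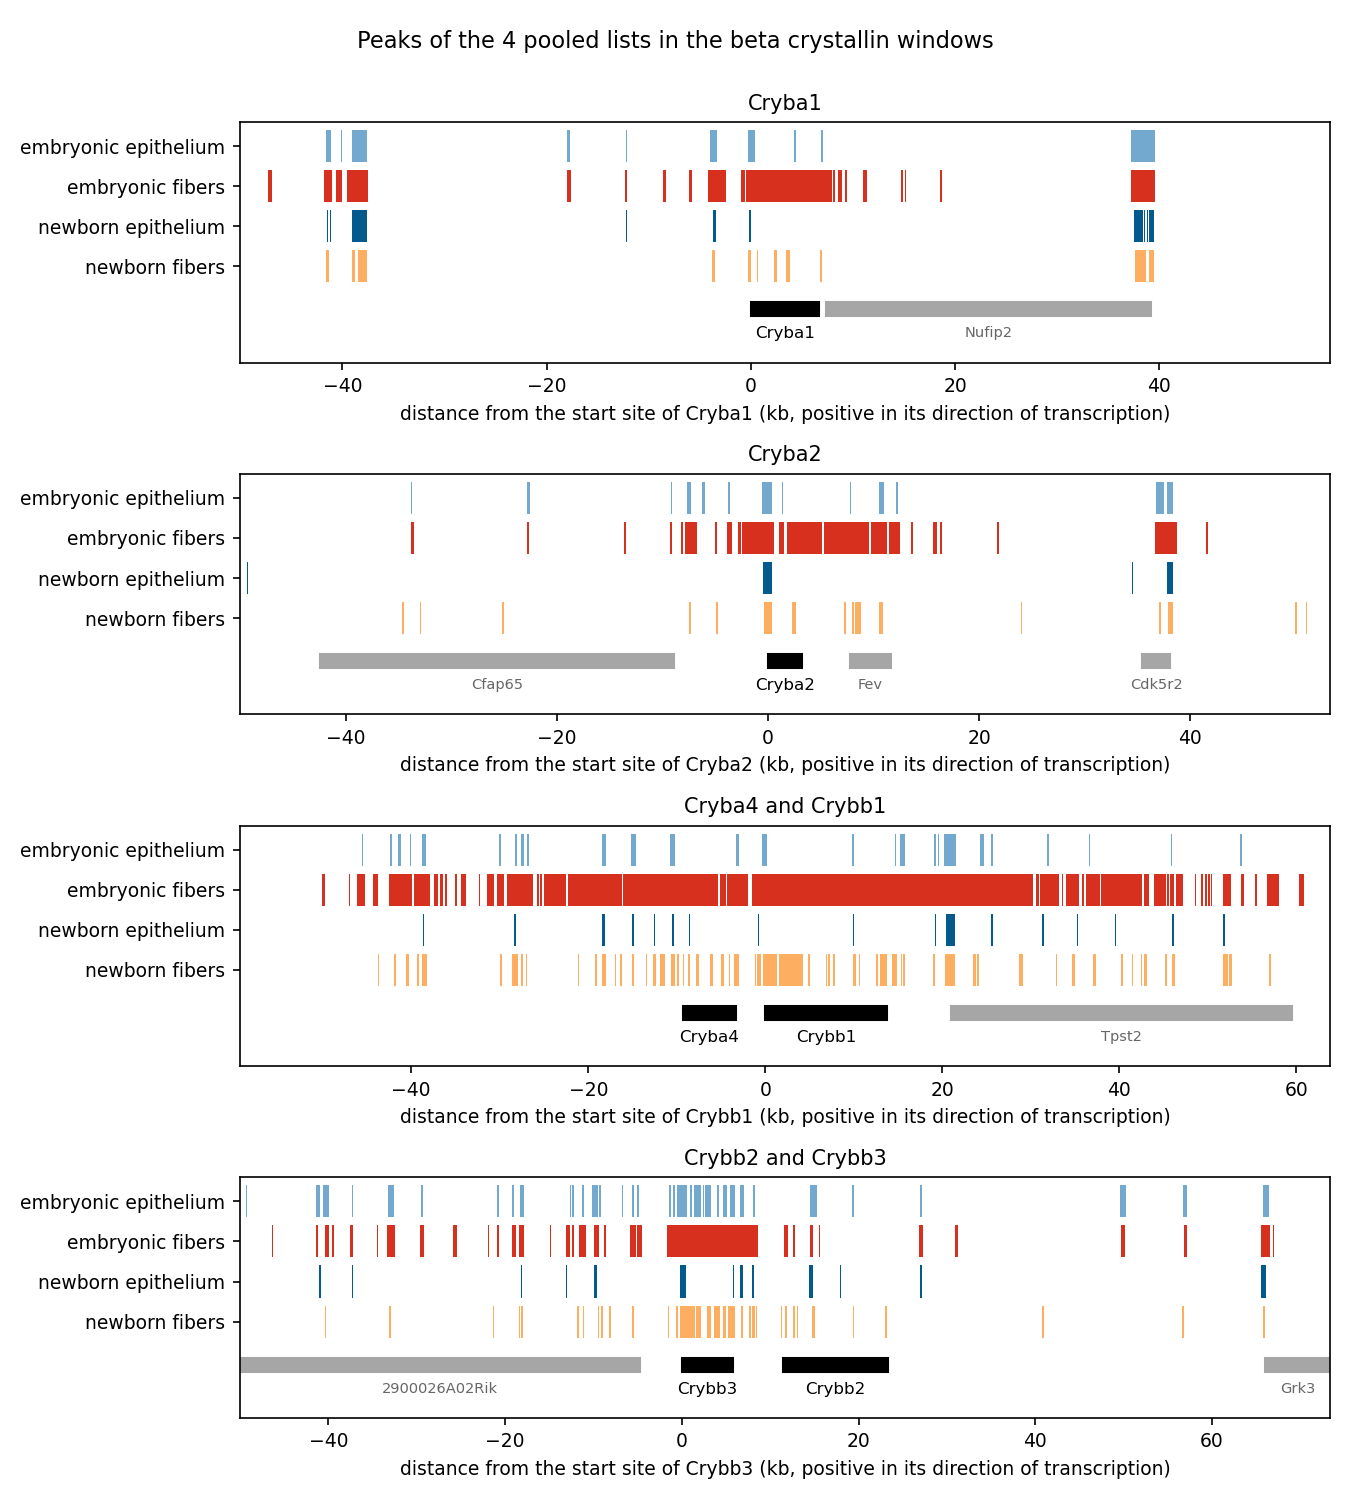
Each panel shows a locus, with the peaks of the 4 lists as coloured blocks drawn to scale against the distance from the start site of the named gene (kb), beta crystallin genes in black and other protein-coding genes in grey. Long red blocks mark the wide embryonic fiber peaks over Cryba1, Cryba2, Cryba4, Crybb1 and Crybb3; Crybb2 has short blocks only.

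The locus of Cryba4 and Crybb1, which lie head to head with 3.30 kb between them, was the most covered of the 4 in both fiber lists. Of its 123.1 kb, 85.2 kb (69.2%) lay under peaks in embryonic fibers, 17.3% in newborn fibers, 6.85% in embryonic epithelium and 3.22% in newborn epithelium. Among the windows of the 19556 protein-coding genes, that of Cryba4 (75.8%) was the most covered in embryonic fibers and that of Crybb1 (74.8%), which overlaps it, the second, beside a median of 4.0%. Both kept these ranks among peaks with a q value under 0.001 and among equal numbers of peaks. In newborn fibers 25 genes had windows covered at least as far as that of Cryba4 (19.1%), and 28 as far as that of Crybb1 (18.7%). The 59 peaks in this locus in newborn fibers were at most 2756 bp wide, whereas in embryonic fibers peaks of 31780, 10676, 6095 and 4645 bp made up most of the covered length.

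Opening at this locus extended over neighbouring genes. Tpst2, which encodes a tyrosylprotein sulfotransferase, was covered to 4.76% in embryonic epithelium, 70.0% in embryonic fibers, 3.67% in newborn epithelium and 11.4% in newborn fibers. The long noncoding RNA gene Miat, on the other side of Cryba4, was covered to 11.5%, 64.3%, 3.25% and 16.2%. Both neighbours thus had the same order of stages in fibers as Cryba4 and Crybb1. The Tpst2 promoter carried the highest peak of the locus in every list, at places 0.299%, 0.494%, 3.28% and 0.0825%.

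The second pair, Crybb2 and Crybb3, is 5.72 kb apart in the same orientation, 789 kb from Crybb1 on the same chromosome. In embryonic fibers a single peak of 10320 bp (chr5:113072967-113083286) covered Crybb3 and its flanks and ended 2.85 kb short of Crybb2. In newborn fibers the same stretch held 12 separate peaks. The window was covered to 10.9%, 18.4%, 3.05% and 8.07%, and in embryonic epithelium this was the most covered of the 4 loci. The neighbour 2900026A02Rik was covered to 14.6%, 18.3%, 4.80% and 6.72%, and Grk3, a kinase of G protein-coupled receptors, to at most 1.17%, so that neither was covered as far as Crybb3.

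Between Crybb3 and Crybb2, a site past the end of Crybb3 was called in all 4 lists. Its summit lay 6.77 kb from the Crybb3 start in embryonic epithelium (place 8.02%), 6.78 kb in newborn epithelium (23.6%) and 6.73 kb in newborn fibers (12.6%), and in embryonic fibers it was inside the 10320 bp peak, without a summit of its own. It is printed because it had the best place of any peak at this locus outside the crystallin gene bodies and more than 2 kb from a start site, with its Maf and Sox matches in capitals.
Crybb3 downstream site at 6.8 kb, chr5:113074711-113074910, minus strand: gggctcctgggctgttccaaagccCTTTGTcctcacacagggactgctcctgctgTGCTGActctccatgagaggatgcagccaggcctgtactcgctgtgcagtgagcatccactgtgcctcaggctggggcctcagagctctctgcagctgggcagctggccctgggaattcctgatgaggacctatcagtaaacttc

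At Cryba1, the peak over the gene extended 0.43 kb upstream of the start and 1.25 kb past the end in embryonic fibers, and a separate site stood 3.6 kb upstream, chosen for its sequence by the same rule. This upstream site was called in all 4 lists, at 6.12% in embryonic epithelium, 3.11% in embryonic fibers, 29.6% in newborn epithelium and 7.65% in newborn fibers, with summits between 3.59 and 3.67 kb before the start. In 3 of the lists it stood higher than the Cryba1 start-site peak, the exception being newborn epithelium with 29.6% against 27.9%. In embryonic fibers the places were close, 3.11% against 3.18%, and the start-site peak had its summit 3.74 kb inside the gene. Its 200 bases hold 5 motif matches, with a Maf half-site directly after the Sox letters ACAATG, a further ACAATG and an ACAAAG on the opposite strand, and a Meis match.
Cryba1 upstream site at 3.6 kb, chr11:77728837-77729036, minus strand: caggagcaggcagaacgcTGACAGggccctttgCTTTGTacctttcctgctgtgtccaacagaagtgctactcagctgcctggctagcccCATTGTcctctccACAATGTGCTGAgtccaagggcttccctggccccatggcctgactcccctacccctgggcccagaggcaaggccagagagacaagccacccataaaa
Nufip2, which encodes an RNA-binding protein and ends 0.647 kb past the end of Cryba1, was covered to 5.99%, 13.1%, 3.56% and 3.77%, so that in embryonic fibers the opening did not run far into it.

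At Cryba2, wide peaks of 3061, 3331 and 4329 bp followed each other in embryonic fibers from the promoter across the gene to Fev, an ETS-family transcription factor gene that lies 4.53 kb past its end. Fev was covered to 14.8% in embryonic epithelium, 90.9% in embryonic fibers, 0% in newborn epithelium and 28.9% in newborn fibers, each fiber value above that of Cryba2 itself. On the other side, the microRNA gene Mir375 (chr1:74900658-74900721) was inside a peak in both embryonic lists and in neither newborn list. In newborn fibers a peak at chr1:74900393-74900642 ended just short of it. Cfap65, a gene of motile cilia, was covered to at most 2.85%. Cdk5r2, an activator of the kinase Cdk5 and 32.2 kb away, was covered to 41.0%, 52.9%, 11.8% and 15.4%.

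Coverage was also taken in steps of 5 kb away from the gene bodies. In embryonic fibers the mean over the 6 genes was 63.9% in the first 5 kb upstream and 68.4% in the first 5 kb downstream, and it was 20.5% and 1.80% between 45 and 50 kb. The far upstream mean rested mainly on Cryba4 (77.1%) and Crybb1 (25.9%), with the other 4 genes between 0% and 10.1% and a median of 8.53%. Over all protein-coding genes the same steps gave 11.5% and 7.84% next to the gene and 4.85% and 5.24% at the far end. The steps of neighbouring beta crystallin genes overlap, so that part of the sequence was counted more than once. Steps also run through the bodies of such neighbours. That of Crybb2 at 5 to 10 kb upstream, for example, was covered to 100% in embryonic fibers and lies largely in Crybb3. The means therefore hold gene body coverage of neighbours as well as flanks.

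**Figure D4:**
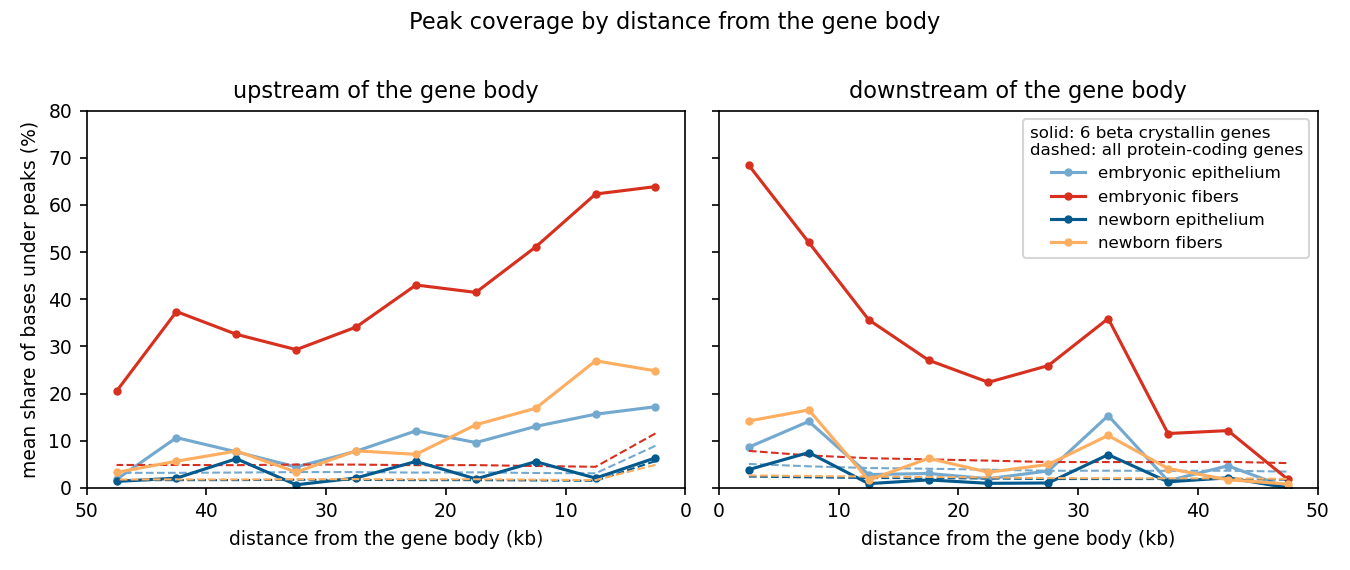
Lines show the mean percentage of bases under peaks in steps of 5 kb upstream (left) and downstream (right) of the gene body, solid for the 6 beta crystallin genes and dashed for all protein-coding genes, in the colours of the 4 lists. The embryonic fiber line of the beta crystallin genes starts at 63.9% and 68.4% next to the gene and ends at 20.5% and 1.80%. Steps can run through the body of a neighbouring beta crystallin gene.

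Merging the 4 lists at 10 bp gave 139 regions in the windows, of 185368 in the genome. Regions called only in embryonic fibers made up 38.8% of them (54 regions), beside 29.3% of all regions, and those called in both fiber lists alone 5.76% (8 regions) beside 2.43%. Regions of embryonic epithelium alone were 2.16% (3 regions) beside 12.9%, and no region was shared by the epithelium lists alone, a class that held 2.28% of all regions. Regions called only in newborn fibers were 10.8% (15 regions) beside 12.6%. Regions called in all 4 lists were 13.7% (19 regions) beside 10.9%. With equal numbers of peaks, 10 of 82 regions (12.2%) were called only in embryonic fibers, beside 12.5% of all regions, and 20 (24.4%) only in newborn fibers, beside 23.1%, so that both shares were near that of the genome. When only peaks with q under 0.001 were merged the shares were 37.5% beside 29.5% and 1.92% (2 regions) beside 4.51%. Regions of embryonic epithelium alone were then 6.73% (7 regions) beside 14.8%, and with equal numbers of peaks 0 of 82 beside 7.40%. Regions of both fiber lists alone were 6.73% beside 1.08% with q under 0.001 and 9.76% beside 1.87% with equal numbers. Among the windows, the Cryba4 and Crybb1 locus had 25 of the 54 embryonic fiber regions, and both this locus and that of Cryba1 had none called only in epithelium. A merged region counts once whether it is a short peak or a wide one that joins several.

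The Maf half-site was also frequent under the summits of the windows. Within 200 bases around the summit it was found in 32.1% of window peaks in embryonic epithelium, 33.3% in embryonic fibers, 38.6% in newborn epithelium and 22.7% in newborn fibers, beside 21.03%, 24.7%, 18.8% and 18.9% of all peaks. The window share was above that of all peaks in each list, by the least in newborn fibers. Of the 11 motifs counted in this way, the Sox letters ACAAAG were found in 13.1%, 12.8%, 11.4% and 15.1% of window peaks in the same order, beside 15.7%, 16.8%, 14.1% and 11.0% of all peaks, so that they were below all peaks in 3 of the 4 lists. The other Sox spelling, ACAATG, was above all peaks in 3 of the 4, with 11.9%, 11.97%, 6.82% and 10.1% beside 10.5%, 11.4%, 9.16% and 7.31%. Shares of the other motifs stood on either side of all peaks. In embryonic epithelium and fibers the TATA box had 8.33% beside 4.29% and 4.27% beside 4.90%. The AP-1 letters had 3.57% beside 6.22% and 9.40% beside 6.77%, and the Meis letters 21.4% beside 18.2% and 13.7% beside 19.5%. Lists overlap in their sites, and neighbouring summits share sequence, so the 4 shares are not separate observations.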

How the data were processed

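ATAC-seq was carried out on 8 libraries in 4 groups of 2. Reads were trimmed by the authors with Trim Galore 0.4.1, mapped to mm10 with Bowtie2 2.3.3.1 and cleared of mitochondrial and duplicated reads with SAMtools 1.2 and Picard 2.1.1. Peaks were called by MACS2 2.1 (q value 0.05), with no control library stated. The lists used here are labelled as pooled by group, whereas the authors describe calls in each sample. The deposited fold enrichment is the ratio of pooled reads at a summit to the local background. The deposited −log10 p and −log10 q values and the peak score derived from the latter come from the same calls. The score was not used, and −log10 p values served only to order peaks. Fold enrichment was used only as a rank within its list, and ties share a rank. Wider or more numerous peaks can follow from deeper libraries or a higher share of reads in peaks, which cannot be told apart from tissue or stage in these lists.

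Coordinates are 1-based in GRCm38, and all peaks on chromosomes lay inside its chromosome lengths. Gene bodies were the union of curated RefSeq transcripts (45756 transcripts). Overlap was at least 1 bp, and regions were merged with bedtools 2.31.1. Python 3.11.15, pandas 2.3.3, numpy 2.4.6, pysam 0.24.0 and matplotlib 3.10.9 were used. Promoter sequences are credited to the RefSeq tables for GRCm38. On simulated data, coverage, highest peaks and motif matches were recovered in 100% of 2000, 500 and 300 cases. The genes, lists, thresholds and motifs were chosen with earlier results of these data known. Named were the 6 genes, their neighbours within 50 kb, the comparison lists and the 5 genes of most similar coverage, and sequences were those of promoters, of the highest window peaks outside gene bodies and, chosen after seeing the data, of a pair of Crybb2 sites inside the gene. Highest window peaks in exons of Fev and Miat are not printed. Alternatives were a q value under 0.001, equal numbers of peaks, other flanks, promoters, gene models and merge distances, the gene body without its first 2 kb, and ranking by −log10 q; the rule on summits, the ranks of windows and the shares of merged regions under other peak sets, exons against introns over all genes and the further Crybb2 start sites were added after seeing the data. Peak sets for single libraries were not analysed here, and 1 of the comparison lists is not reported here.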

Additional observations from a re-analysis of the deposited data

Results flagged for a closer look

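For Cryba4, the difference in gene body coverage between E14.5 and P0.5 had opposite signs in the tissues, with 63.5 points in fibers and -1.59 points in epithelium. For Crybb2 the difference was -1.22 points in fibers and 3.07 points in epithelium. The place of the highest Crybb2 peak at E14.5 less that at P0.5 was -0.291 percent of the list in fibers and 1.03 percent in epithelium, in lists of unequal length. With equal numbers of peaks the signs were no longer opposite, with places of 55.2% at E14.5 and 28.4% at P0.5 in fibers and 28.8% and 15.8% in epithelium. None of these differences between tissues was tested, since each group has a single pooled list. The epithelial value of Cryba4 and all 4 values of Crybb2 rest on a few short peaks, and the sign changed in some of them among peaks with a q value under 0.001, where Cryba4 stood at 0.664 points in epithelium and Crybb2 at 2.39 points in fibers.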

How the results depend on the processing

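Of the 14 coverage differences of at least 20 points, all 56 values under the alternatives kept their sign and 55 stayed at or above 20 points. With equal numbers of peaks (58592 in each list), 0 genes were covered to at least 50% in embryonic epithelium in place of Crybb3, 0 genes differed by 20 points between stages in epithelium, the windows held 45 peaks in embryonic epithelium and 55 in embryonic fibers, and merging left 82 regions, 10 of them called only in embryonic fibers (12.2%, beside 12.5% of all regions) and 20 only in newborn fibers (24.4% beside 23.1%). Flanks of 20 kb left 60 peaks in embryonic fibers and 26 in newborn epithelium. A q value under 0.001 left 71 peaks in newborn fibers and 2 regions called only there. These alternatives remove peaks or bases by construction. The other 66 counts under the alternatives stayed within 1.5 times the reported count. Ranking by −log10 q gave each highest peak of the beta crystallin genes the same place, so the counts under it are no separate check. Of 96 values of gene body coverage under the alternatives, 15 moved by over 1.5 times, among them Crybb2 in embryonic fibers (9.99% to 3.59% with equal numbers of peaks), Crybb2 in newborn fibers (11.2% to 4.62% with q under 0.001) and Cryba2 in embryonic epithelium (16.3% to 0% without the first 2 kb). The share of regions called only in embryonic fibers therefore depends on how many peaks each list contributes, whereas 5 genes were covered to at least 50% in embryonic fibers under each of the 4 alternatives tried for that count. No paired analysis was possible because the lists pool the 2 libraries of each group, and for the same reason no library could be left out. Depth is not given by the lists, and a region without a peak was not called at this depth, which does not make it closed.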

Other observations

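Outside the crystallin loci, the 5 protein-coding genes whose coverage over the 4 lists was nearest to the mean of the beta crystallin genes (16.2%, 79.9%, 5.01% and 32.4% in embryonic epithelium, embryonic fibers, newborn epithelium and newborn fibers) were Nrn1l, Fgfr3, Rpl12, Hsf4 and Egr4. The measure was the Euclidean distance over 4 lists, and it ran from 10.3 points for Nrn1l to 14.9 for Egr4. Fgfr3, a receptor for fibroblast growth factors, was covered to 20.3%, 75.9%, 13.2% and 26.0%. Hsf4, a heat shock factor known for its role in lens fibers, was covered to 25.1%, 69.2%, 7.30% and 32.1%. Rpl12, which encodes a ribosomal protein, was covered to 24.0%, 73.2%, 11.3% and 34.0%.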
